A study of Macaca fascicularis with 44 samples.

Results

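Gene expression was compared between 2 brain regions of saline-treated female macaques (Macaca fascicularis), the posterior dentate gyrus (pDG) and the anterior cingulate cortex (ACC). The comparison held 12 of the 44 RNA-seq libraries of the series, 6 per region, chosen by the tissue and treatment in their labels. The same contrast was then read in 11 libraries from animals given betamethasone, a synthetic glucocorticoid, with 5 from pDG and 6 from ACC. Saline libraries of the anterior dentate gyrus (aDG) and the basolateral amygdala (BLA), 6 each, served as points of reference. Age, dose, route and animal are not in the labels, and nothing there says that replicates are separate animals. The p-values therefore rest on library-to-library spread, part of which may be technical.

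The dentate gyrus is the entry stage of the hippocampal circuit. Its principal neurons are small, densely packed granule cells, which receive input from the entorhinal cortex and project to hippocampal field CA3, and in many mammals new granule cells are added after birth. The anterior cingulate cortex is a layered neocortical area in which several classes of pyramidal neurons project within the cortex, to the striatum, to the thalamus and to other subcortical targets. Both regions also hold inhibitory neurons and glia. The tables list genes by Ensembl-style identifier and do not pair them with names, and 0 of the 17293 identifiers matched the gene table used here. The regions could therefore not be checked against their marker genes, genes are given without a function, and at most 2 identifiers are named in each direction.

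Depth was alike in both regions. It ranged from 30904257 to 61363984 gene reads in pDG (median 42538868) and from 30955135 to 48658744 in ACC (median 44888541), a difference in means that an exact two-sided permutation test over libraries did not separate (p = 0.846, adjusted p = 0.846 over 5 measures). The share of reads that could not be mapped was 11.9% to 14.7% in 5 pDG libraries and 31.4% in pDG replicate 6, against 12.2% to 16.9% in ACC. Of the mapped reads, 24.5% to 34.3% in pDG and 27.99% to 36.3% in ACC lay outside annotated genes, with the highest shares in ACC replicate 3 (36.3%), ACC replicate 5 (34.6%) and pDG replicate 5 (34.3%). Neither share differed detectably between the regions (exact permutation p = 0.565 and 0.545, adjusted p = 0.706 for both).

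The regions differed in a large part of the measured genes, mostly by small amounts. Of 14528 genes tested, 5716 (39.3%) passed the threshold, an adjusted p under 0.05 in edgeR's quasi-likelihood test. Of these, 2750 were higher in pDG (18.9% of genes tested) and 2966 were higher in ACC (20.4%). The median difference among the genes that passed was 1.59-fold, and 3896 of them (68.2%) differed by less than 2-fold. At least 2-fold differences were found in 1820 genes (12.5%). A test against a 2-fold difference itself, which asks more than an estimate above 2-fold, passed 899 genes. In tissue samples like these, fewer cells of a type and less RNA per cell cannot be told apart.

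**Figure D1:**
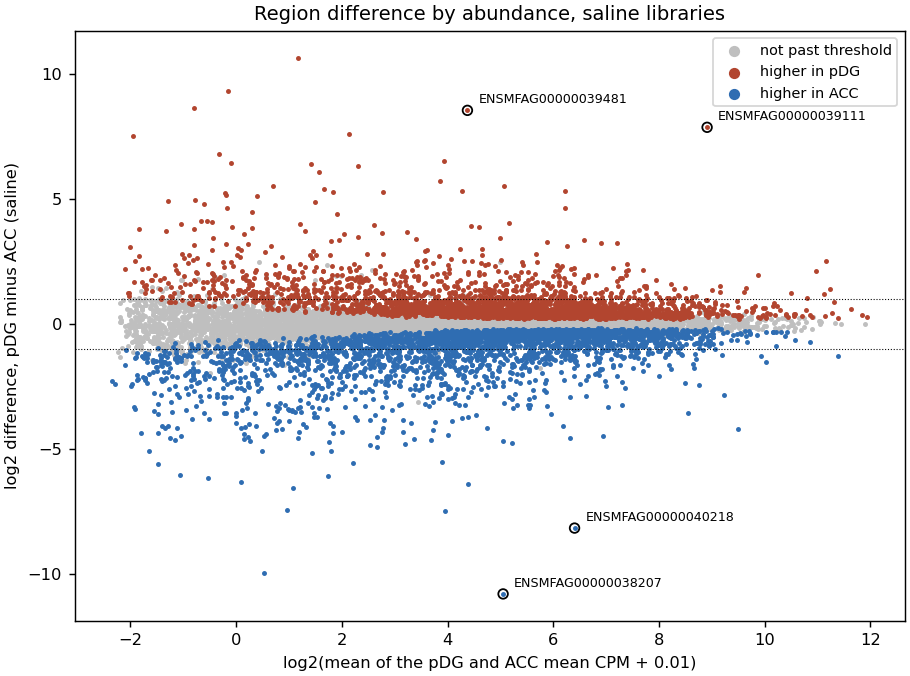
Each point is 1 of the 14528 genes tested in the 6 pDG and 6 ACC saline libraries, placed by log2 of its mean CPM (x axis) and its log2 difference, pDG minus ACC (y axis). Red and blue genes passed the adjusted p threshold of 0.05, dotted lines mark 2-fold, and the 4 circled identifiers are those named in the text.

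Larger differences were more often toward ACC. At 2-fold or more, 694 genes were higher in pDG (4.78%) and 1126 were higher in ACC (7.75%), so that pDG held 38.1% of these genes against 48.1% of all genes that passed. At 4-fold or more there were 183 (1.26%) and 399 (2.75%), at 8-fold or more 68 (0.468%) and 156 (1.07%), and at 16-fold or more 37 (0.255%) and 64 (0.441%). At 32-fold or more the order turned, with 24 genes higher in pDG (0.165%) and 18 higher in ACC (0.124%). That last order did not hold throughout. It was 26 against 34 without the 3 libraries with the highest share of reads outside genes, 21 against 28 without pDG replicate 5 alone, 21 against 25 in limma voom and 14 against 14 among genes with at least 1 CPM in 6 libraries.

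**Figure D2:**
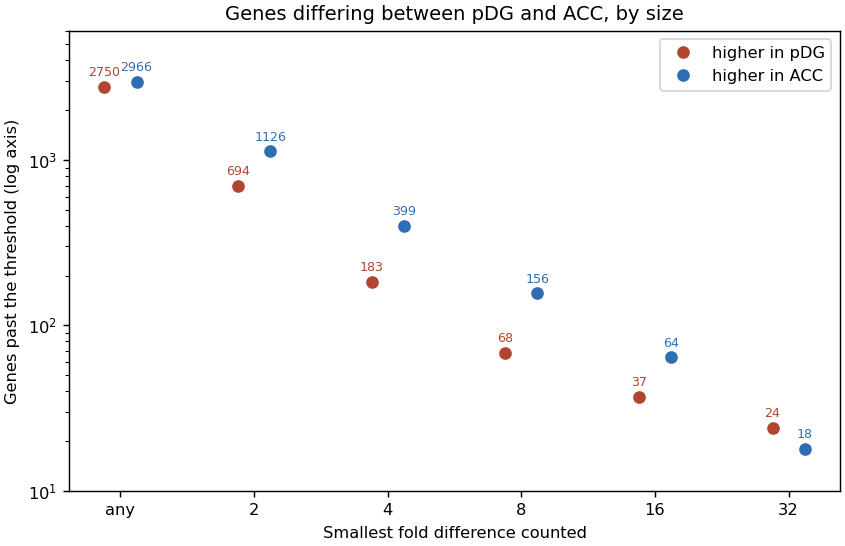
Number of genes past the threshold (y axis, log scale) that differed by at least the fold on the x axis, with genes higher in pDG in red and genes higher in ACC in blue. Between 2-fold and 16-fold the ACC counts exceed the pDG counts, from 1126 against 694 to 64 against 37.

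The excess toward ACC at 2-fold was seen among rare and abundant genes alike. Abundance is given here in CPM, a gene's reads per 1000000 gene reads of the library, averaged over the 12 libraries. Among the 1104 genes under 1 CPM, 107 were at least 2-fold higher in pDG and 192 in ACC. The corresponding counts were 267 and 457 among 3426 genes of 1 to 10 CPM, 256 and 388 among 7488 genes of 10 to 100 CPM, and 64 and 89 among 2510 genes above 100 CPM. The share of genes that passed rose with abundance, from 30.3% under 1 CPM through 36.8% and 39.4% to 46.7% above 100 CPM. The standard error of the log2 difference fell in the same order, from a median of 0.39 to 0.10, and the median fold of the genes that passed fell from 3.31 to 1.40.

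For 3046 genes (21.0%) the libraries of the regions did not overlap, 1230 of them higher in pDG (8.47%) and 1816 higher in ACC (12.5%). Of the 582 genes that passed and differed at least 4-fold, 539 were free of overlap. Another 25 genes did not overlap but missed the adjusted threshold.

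Complete presence in one region and absence from the other was rare. A level of at least 1 CPM in all 6 libraries was reached by 12644 identifiers in pDG and 12820 in ACC, and 12404 were in both lists, which is 98.1% of the pDG list and 96.8% of the ACC list. At least 1 CPM in every library of one region and under 0.1 CPM in every library of the other was met by 1 identifier for pDG and 5 for ACC. The pDG identifier ranged from 1.12 to 10.4 CPM in pDG with at most 0.0956 CPM in ACC. One of the ACC identifiers, at 1.60 to 4.05 CPM in ACC, had 0 reads in all 6 pDG libraries. In the betamethasone libraries 2 of the 6 identifiers met the same limits. The excess for ACC hung on the limits: with 0.5 and 0.05 CPM there were 3 for pDG and 1 for ACC, and with 5 and 0.5 CPM there were 2 and 3.

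Among genes that averaged at least 10 CPM in the higher region, passed the threshold and did not overlap (976 higher in pDG, 1342 in ACC), the 2 with the largest log2 difference in each direction are described by library. ENSMFAG00000039481 led toward pDG. It ranged from 12.6 to 93.3 CPM over the 6 pDG saline libraries (median 38.3) and from 0.0323 to 0.267 CPM over the 6 ACC saline libraries (median 0.0761), the latter from 1 to 13 reads per library. The lowest pDG library, replicate 5, lay far above the highest ACC library, replicate 1. The fitted log2 difference was 8.53 ± 0.57 (SE, n = 6 per region; edgeR adjusted p = 2.27e-08), and the ratio of pooled CPM was 336 (95% exact interval 234 to 502, for counting error only). In saline aDG the identifier ranged from 0.281 to 59.6 CPM (median 40.1), with replicate 5 as the low library, and in saline BLA from 0 to 0.0714 CPM. The pDG and aDG ranges overlapped, so by median its order was both dentate parts first, then ACC and BLA near the floor of the counts. The low aDG library, with 8 reads, was itself near that floor and just above the highest ACC library.

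ENSMFAG00000039111 came next toward pDG but varied most within it. Its pDG saline libraries held 29.3 to 4425 CPM (median 235), a range of 151-fold, while its ACC saline libraries held 2.15 to 6.09 CPM (median 4.29). Replicate 5 alone made up the top of the pDG range, since the next library, replicate 1, held 750.2 CPM. Absence of overlap with ACC was part of the rule that chose it. The fitted log2 gap was 7.86 ± 1.32 (SE; edgeR adjusted p = 0.000531), and 6.04 without pDG replicate 5, where it also passed (edgeR adjusted p = 1.61e-05). With libraries blocked by title number it was 6.19. Saline aDG spanned 0.214 to 804.3 CPM (median 132.9) and saline BLA 0 to 8.41 CPM (median 0.373), so aDG overlapped both pDG and ACC.

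ENSMFAG00000038207 was the leading identifier toward ACC. Its ACC saline libraries held 36.7 to 85.5 CPM (median 69.1), or 1136 to 4048 reads, with replicate 3 as the lowest. The pDG saline libraries held 0 to 3 reads each, at most 0.0697 CPM. The log2 difference was -10.80 ± 0.33 (SE; edgeR adjusted p = 1.18e-11), and pooled ACC CPM exceeded pooled pDG CPM 2020 times (95% exact interval 1064 to 4419, counting error only), with 17588 reads against 9. By median BLA (6.79 CPM, range 0.0535 to 9.53) and aDG (0.203 CPM, range 0.0302 to 5.52) lay between ACC and pDG, but BLA replicate 5 (0.0535 CPM) and aDG replicate 6 (0.0302 CPM) fell within the pDG range. BLA replicate 5 was the low BLA library and aDG replicate 5 the high aDG library, and with these 2 libraries the aDG and BLA ranges overlap.

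ENSMFAG00000040218 was second toward ACC and the steadier of both within it. Its ACC saline libraries held 133.2 to 195.5 CPM (median 175.8), a range of 1.47-fold. In pDG it stood at 0.0489 to 0.429 CPM in 5 libraries and at 3.17 CPM in replicate 3. The log2 difference was -8.17 ± 0.69 (SE; edgeR adjusted p = 4.85e-07) and -9.88 without pDG replicate 3. DESeq2 gave it no adjusted p in the saline comparison. Levels in saline aDG (0.0420 to 1.66 CPM) and BLA (0.7495 to 3.73 CPM) overlapped those in pDG, the latter only through pDG replicate 3, so ACC stood apart from the other 3 regions.

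**Figure D3:**
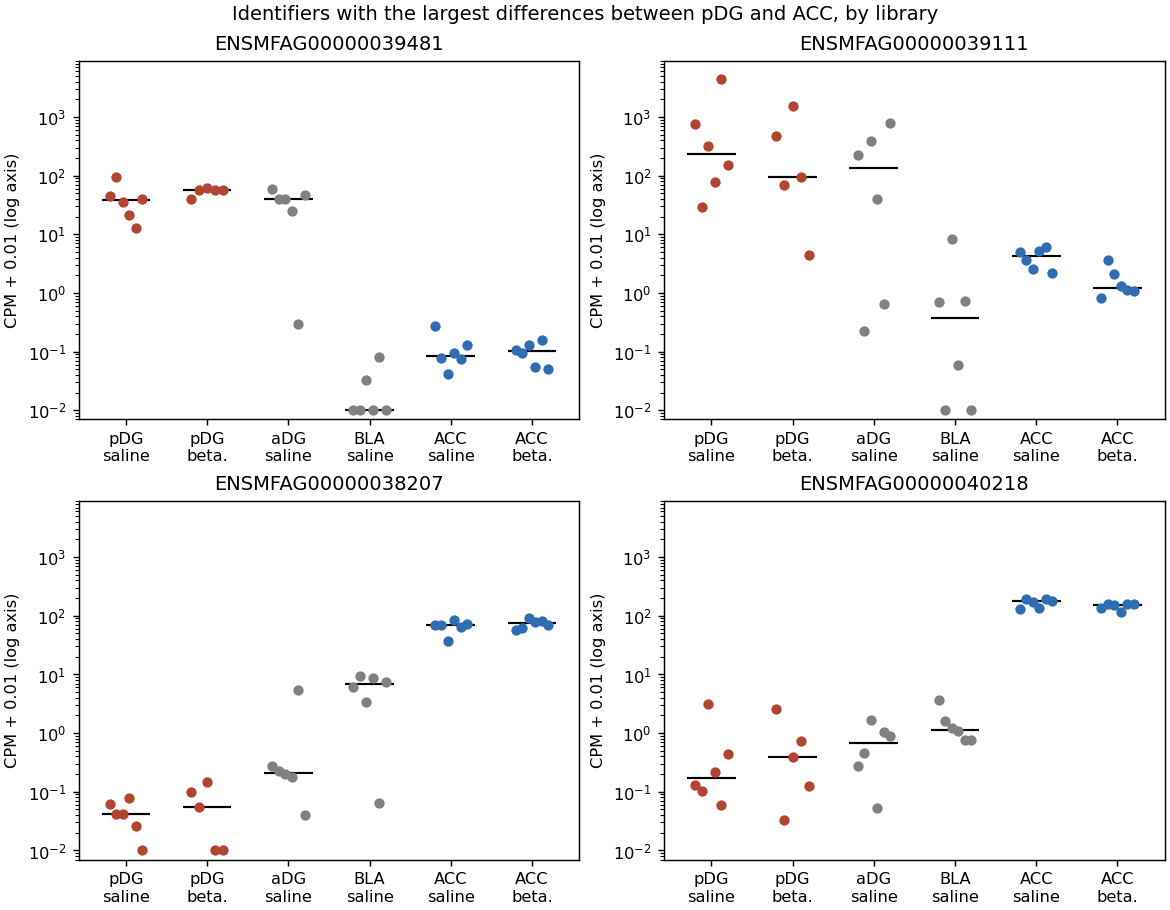
CPM plus 0.01 on a log axis for the 4 named identifiers, 1 point per library, with the group median as a bar; pDG is red, ACC blue, and saline aDG and BLA grey. In the upper panels every pDG saline library lies above every ACC saline library, and in the lower panels every ACC library lies above every pDG library.

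The next 8 genes in each direction under the same rule were smaller in difference but steeper than 16-fold. Toward pDG their log2 differences ran from 4.04 to 6.52, with mean levels of 13.4 to 146.2 CPM in pDG and 0.339 to 5.85 CPM in ACC (edgeR adjusted p at most 8.92e-06). Toward ACC they ran from -4.71 to -7.50, with means of 11.2 to 71.6 CPM in ACC and 0.178 to 2.57 CPM in pDG (edgeR adjusted p at most 3.78e-07). All 16 had the same direction in the betamethasone libraries and passed there (edgeR adjusted p at most 2.42e-05).

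The most abundant genes took a larger share of reads in the pDG libraries, a difference that passed unpaired and that the paired test could not decide. The 100 most abundant genes of each library took 16.2% to 17.0% of gene reads in pDG (mean 16.6% ± 0.309, SD, n = 6) and 14.4% to 15.4% in ACC (14.9% ± 0.372). The groups did not overlap, and an exact two-sided permutation test over the 12 libraries gave p = 0.00216, the smallest that free shuffling can give (adjusted p = 0.0108 over 5 measures). With libraries paired by title number the share was higher in pDG in 6 of 6 pairs. An exact sign-flip permutation test gave p = 0.03125, the smallest it can give (adjusted p = 0.156), which did not pass. Over 5 measures that smallest p cannot pass unless most of the measures reach it too, so the paired test could not decide. With 10 genes the difference was 0.669 percentage points (exact permutation p = 0.00216), and with 1000 genes it was 1.22 percentage points (exact permutation p = 0.0195). The number of identifiers at 1 CPM or more was 13004 to 13401 in pDG and 13217 to 13425 in ACC (exact permutation p = 0.0390, adjusted p = 0.0974), a difference that did not pass. Taken by mean CPM, 80 of the 100 most abundant identifiers were the same in both regions. Of the 100 in pDG, 49 were higher in pDG and 9 higher in ACC, and 11 differed at least 2-fold. Of the 100 in ACC, 21 were higher in ACC and 30 higher in pDG, and 8 differed at least 2-fold. Over all genes tested, 18.9% were higher in pDG, 20.4% were higher in ACC and 12.5% differed at least 2-fold. Each list was ranked by CPM in its own region, in the libraries that also gave the calls. That ranking favors genes higher in that region.

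Spread between saline libraries was similar in the regions by 2 summary measures. The biological coefficient of variation, which is the spread beyond counting error, was 22.9% in pDG and 21.6% in ACC. In the betamethasone libraries it was 25.0% in pDG and 15.5% in ACC. Over all tested genes the median standard deviation of log2 CPM was 0.24 in pDG and 0.23 in ACC. A range of at least 10-fold among the saline libraries was found for 295 of the 14528 genes in pDG and 200 in ACC. Among genes of at least 10 CPM that were at least 4-fold higher in ACC, the pDG libraries spread more than the ACC libraries in 99 of 134 (73.9%), with medians of 0.39 and 0.26. In the 69 such genes higher in pDG they did so in 31 (44.9%), with medians of 0.37 in pDG and 0.41 in ACC. Over all 9998 genes of at least 10 CPM the share was 47.7%. In both lists the larger median lay in the region where the genes were lower. A range of at least 10-fold among the 6 libraries of the higher region was found for 2 of the 69 pDG genes and 1 of the 134 ACC genes. In the lower region such a range was found for 0 of the 69 and 7 of the 134.

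The same contrast was measured in the 11 betamethasone libraries, none of which entered the saline fit. There 7136 of 14557 genes passed (49.0%), 3626 higher in pDG (24.9%) and 3510 higher in ACC (24.1%), and 2029 differed at least 2-fold (13.9%). Of the 5716 genes that passed in saline, 5686 were tested, 5612 (98.7%) had the same direction and 4930 (86.7%) also passed in that direction. Among genes that had not passed in saline, 78.7% had the same direction and 23.3% passed in it. Of the 1790 tested genes that differed at least 2-fold in saline, 92.8% passed in the same direction, and the median ratio of the betamethasone to the saline log2 difference was 1.02. All 216 tested genes of at least 8-fold kept their direction, and 209 passed. Over the 14419 genes tested in both sets the saline and betamethasone differences had Pearson's r = 0.93 and Spearman's rho = 0.88, across genes, which do not count as replicates.

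**Figure D4:**
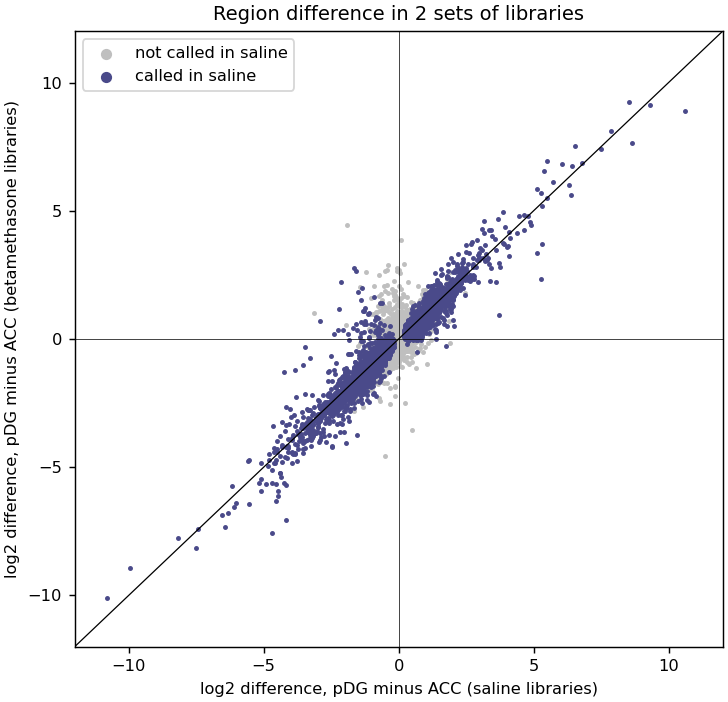
Log2 difference, pDG minus ACC, in the saline libraries (x axis) and in the betamethasone libraries (y axis) for 14419 genes, with genes past the threshold in saline in dark blue and the line of equal difference in black. Most genes lie along the line, and 61 dark points left of 0 lie above 0.

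The exceptions were unevenly placed. Of the 2958 tested genes that passed as higher in ACC with saline, 61 were higher in pDG with betamethasone. Of the 2728 that passed as higher in pDG, 13 went the other way. Direction with betamethasone is here the sign of the estimate, whether or not it passed. Over all 14419 genes tested in both sets, 86.6% had the same direction. In 52 of the 61 the highest pDG betamethasone library was replicate 1. The median of the 61 genes was 9.55 CPM in that library, 0.912 to 1.15 CPM in the other 4 pDG betamethasone libraries, and 0.826 to 1.40 CPM in the pDG saline libraries. Their medians were 1.65 to 3.50 CPM in ACC saline and 1.60 to 2.22 CPM in ACC betamethasone. Without pDG betamethasone replicate 1, 9 of the 61 were still higher in pDG. One gene passed in opposite directions, with means of 2.20 CPM in pDG and 6.72 CPM in ACC with saline (edgeR adjusted p = 0.00413) and of 19.5 and 3.12 CPM with betamethasone (edgeR adjusted p = 0.0352). Its interaction did not pass (edgeR adjusted p = 0.685).

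The 4 named identifiers kept their direction and passed again with betamethasone. ENSMFAG00000039481 stood at 40.5, 56.2, 62.4, 58.1 and 57.0 CPM in the 5 pDG betamethasone libraries and at 0.0415 to 0.146 CPM in ACC (fitted difference 9.26 ± 0.20 on the log2 scale, edgeR adjusted p = 3.81e-12). ENSMFAG00000039111 stood at 479.9, 69.2, 1572, 96.7 and 4.48 CPM in pDG and at 0.805 to 3.59 CPM in ACC (log2 difference 8.13 ± 1.24, edgeR adjusted p = 0.000123). Its 350.5-fold range within pDG was again wide, with no overlap of the regions. ENSMFAG00000038207 stood at 0.0874, 0.0455, 0.139, 0 and 0 CPM in pDG and 57.5 to 92.2 CPM in ACC (-10.10 ± 0.32, edgeR adjusted p = 8.87e-11). ENSMFAG00000040218 stood at 2.56, 0.0227, 0.388, 0.724 and 0.115 CPM in pDG and 115.9 to 161.9 CPM in ACC (-7.78 ± 0.55, edgeR adjusted p = 1.08e-07), with replicate 1 as the high pDG library.

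Whether the region difference itself differed with treatment was tested as an interaction in the 23 pDG and ACC libraries. In edgeR 0 of 14925 genes passed (0%; lowest adjusted p = 0.259), and 572 genes (3.83%) had an unadjusted p under 0.05. DESeq2 called 2 genes and limma voom 0. The edgeR count was 1 without pDG saline replicate 2. With libraries blocked by title number it was 0 (lowest adjusted p = 0.0514) with 4 betamethasone pairs, and 1 or 0 (lowest adjusted p = 0.00755 or 0.0939) with 1 more pair added under either of its possible matches. For the 4 named identifiers the interaction ranged from -0.71 ± 0.87 to -0.28 ± 1.58 (SE) on the log2 scale, with an edgeR adjusted p of 0.9999 for each. A missing call does not show that the differences were equal. Among the 1820 genes with at least 2-fold differences in saline the interaction had a median size of 0.24 on the log2 scale.

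To place single libraries between the regions, an axis was set by the betamethasone libraries and applied to the saline libraries. Of the 2029 genes that passed there with at least 2-fold differences, it used the 1954 that were also kept in the saline fit. Of these, 748 were higher in pDG and 1206 higher in ACC. The mean of pDG betamethasone was set at 0 and that of ACC betamethasone at 1. Levels were scaled over all 44 libraries. The pDG saline libraries lay at 0.0135 to 0.118 (median 0.0394) and the ACC saline libraries at 0.889 to 0.978 (median 0.962). The betamethasone libraries average 0 and 1 by construction, so only the saline positions are informative. Of the pDG libraries replicate 5 lay closest to ACC (0.118, the others at most 0.0489), and of the ACC libraries replicates 3 (0.889) and 5 (0.919) lay closest to pDG. These are the 3 libraries with the highest shares of reads outside genes, but pDG replicate 2, with 33.6% outside genes, had the lowest position of all (0.0135). The part of that share in the positions was not tested. Without these 3 libraries 5637 genes passed, 1972 of them at least 2-fold.

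**Figure D5:**
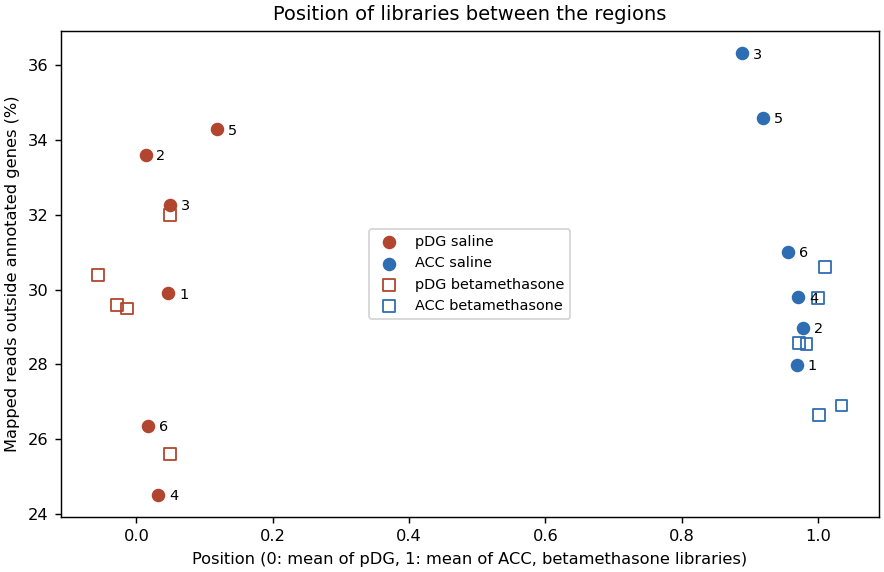
Position of each pDG and ACC library on the axis set by the betamethasone libraries (x axis) against the percentage of its mapped reads outside annotated genes (y axis); filled circles are saline libraries with replicate numbers, open squares betamethasone libraries. Saline pDG libraries lie between 0.0135 and 0.118 and saline ACC libraries between 0.889 and 0.978.

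On the same axis 5 saline aDG libraries lay at 0.101 to 0.204. They overlapped pDG only through pDG replicate 5 (0.118), since the other pDG saline libraries reached at most 0.0489. The saline BLA libraries lay at 0.314 to 0.444, and aDG replicate 5, at 0.383, fell within the BLA range. The amygdala libraries were thus between both ends of this axis and nearer to its pDG end. Since the axis holds only genes that differ between pDG and ACC, that position does not measure how alike BLA is to either region. Summed reads gave the same order, but they came from the same libraries and from gene lists that hold the genes of the axis. The shared order is therefore not separate evidence. The 766 genes that were at least 2-fold higher in pDG in the betamethasone libraries took 4.93% to 5.36% of gene reads in pDG saline, 3.70% to 5.14% in aDG, 2.78% to 4.65% in BLA and 1.79% to 1.99% in ACC. The 1263 genes at least 2-fold higher in ACC took 1.97% to 2.22% in pDG, 2.15% to 3.005% in aDG, 2.69% to 3.998% in BLA and 5.45% to 6.38% in ACC. The pDG and ACC ranges were far apart for both lists, while aDG overlapped pDG. For the pDG list aDG replicates 2 (4.39%), 4 (4.50%) and 5 (3.70%) lay within the BLA range. For the ACC list aDG met the BLA range only through aDG replicate 5 (3.005%), since the other 5 aDG libraries reached at most 2.61%.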

How the data were processed

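For every library the authors deposited whole-number counts of reads per gene. STAR is the tool named, per the submitters' processing notes; version, annotation and genome build were not given in the sources used here. The fourth column of each table was used, whose gene total exceeded that of the other strand 54.9 to 75.3 times in the 12 saline libraries. Reads outside genes (24.5% to 36.3% of mapped reads) and ambiguous reads (0.333% to 0.444%) were left out, and 139 identifiers on 298 rows were summed. Multimapping reads were listed as 0, so genes with near-identical copies are uncertain.

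The main test was edgeR 4.0.16 under R 4.3.3 (TMM, filterByExpr with a minimum count of 10 and total of 15, robust quasi-likelihood fit, Benjamini-Hochberg adjustment). It was checked on simulated data in which far fewer genes changed than passed here, evenly in both directions. That check does not cover a contrast as wide as this. SE is the size of the log2 difference divided by the square root of F. Each treatment was fitted alone, and the interaction over all 23 libraries. Alternatives used DESeq2 1.42.0, limma 3.58.1, other scalings and filters, unstranded counts and left-out libraries. The share of reads outside genes as a covariate, and leaving out the 3 libraries highest in it, were added after seeing the data, as were the paired test of library measures and the blocked fits with 1 more pair. Log2 CPM for the axis and the spread used a prior count of 2.

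Title numbers of pDG and ACC run in parallel (62 or 63 apart). In all 6 saline pairs matched by them the libraries deviated together (r of 0.2434 to 0.53, against -0.25 to 0.2437 in other pairs), which meets the limit of 0.1 set for pairing. All 6 ACC libraries were closest to their match, but only 5 pDG libraries were. The exception, pDG replicate 2, was marginally closer to another ACC library (0.2437) than to its match (0.2434). The pairing is inferred from the title numbers and this check, since the labels name no animal, and the main fit has no block. Only 4 betamethasone pairs are unambiguous, since 1 more pDG library could match either of 2 ACC libraries, and the other libraries are left out of that blocked fit. The members, the rule for named identifiers (largest differences without overlap, mean of at least 10 CPM) and the tests were chosen with earlier results of these data known. Lists of marker genes could not be applied without gene names. Intervals cover counting error only.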

Additional observations from a re-analysis of the deposited data

Results flagged for a closer look

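Single libraries far from the rest of their group were found for 12 values in 48 groups of values. The nominal rate of the rule, 1 in 20, assumes normal values. Several of the values are CPM near the floor, and the groups share libraries, so 12 cannot be read as an excess. For ENSMFAG00000039481 these were ACC saline replicate 1 (0.267 CPM, high), pDG betamethasone replicate 1 (40.5 CPM, low) and BLA saline replicate 5 (0.0714 CPM, high). For ENSMFAG00000039111 they were pDG saline replicate 5 (4425 CPM) and BLA saline replicate 3 (8.41 CPM), both high. For ENSMFAG00000038207 aDG saline replicate 5 was high (5.52 CPM). ENSMFAG00000040218 was high in pDG saline replicate 3 (3.17 CPM), pDG betamethasone replicate 1 (2.56 CPM) and BLA saline replicate 1 (3.73 CPM). The share of unmapped reads was high in pDG saline replicate 6 (31.4%). On the axis from pDG to ACC, pDG saline replicate 5 (0.118) and aDG saline replicate 5 (0.383) lay above the others of their groups.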

How the results depend on the processing

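Of 229 values under alternatives, 224 kept their direction and side of the threshold, or a count within 1.5 times. Each of the 4 named identifiers gave 22 or 23 of these values. They were chosen for the largest differences, so their agreement was likely beforehand. The exceptions were the test against a 2-fold difference itself, with 899 genes in place of 1820, and the interaction, with 2 genes in DESeq2 and 0 to 1 when single libraries were left out (1 without pDG saline replicate 2, edgeR adjusted p = 0.0105). The read share of the 100 most abundant genes (1.69 percentage points) did not pass when paired (exact sign-flip permutation, adjusted p = 0.156). The difference was the same size, 6 of 6 pairs were higher in pDG, and the unadjusted p of 0.03125 is the smallest that test can give. With 5 measures adjusted together it could not pass at this number of pairs unless most measures reached that p. Causes of the other exceptions were not tested. With the replicate block, matched by title number, 7165 genes passed in saline, among them 5685 of the 5716, with 1480 gained and 31 lost. Betamethasone calls went from 7136 to 6767 with 4 pairs and to 7452 or 7733 with 1 more, repeated calls from 4930 to 5619 and to 5890 or 6080, and the interaction to 0, and to 1 or 0. The 4 named identifiers passed with the block. Genes that passed in saline numbered 4940 to 5728 with single libraries left out and 5209 to 7165 otherwise. DESeq2 gave no adjusted p for ENSMFAG00000040218, and that value is not among the 229. Genes under 1 CPM had a median SE of 0.39 on the log2 scale, so small differences there were not detectable at this depth.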
